A study of Mus musculus with 4 samples.

Results

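The Krüppel-like factor genes Klf2, Klf3, Klf4, Klf5 and Klf9 were followed in mouse embryonic stem (ES) cells and in neural stem cell cultures. They were taken as every probe set that the platform annotation pairs with one of these 5 symbols and no other gene, which gave 8 of the 12422 probe sets used on the MG_U74Av2 expression array (5 of 8251 genes). Klf3, Klf4 and Klf9 have a pair of probe sets each, and Klf2 and Klf5 a single one. Neurospheres, balls of neural stem and progenitor cells that grow unattached, came from E13.5 telencephalon and were grown with FGF2 (1 array, titled NSC). R1, an established mouse ES cell line, was kept as unattached embryoid bodies for 48 hours (2 arrays, titled aggregation and suspension) or on gelatin under standard conditions for undifferentiated growth (1 array). All R1 cultures received LIF, a cytokine that sustains the undifferentiated state, and beta-mercaptoethanol. No genotype, strain or number of animals behind the neurospheres was stated, and their labels list astrocytes, glia and oligodendrocytes as contaminating cells. The labels give both embryoid body arrays one sample identifier, so they were treated as 2 replicates, and whether the cultures were separate is not stated. The p-values thus rest on the spread of that pair, largely pooled over tested probe sets of similar intensity. Whether that spread is technical or belongs to the way the bodies were made is not known. With 1 array each, array and culture cannot be told apart for neurospheres and adherent cells.

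Krüppel-like factors bind GC-rich and CACCC-type DNA elements through C-terminal zinc fingers, and their remaining sequence recruits activators or repressors. In mouse ES cells Klf2, Klf4 and Klf5 occupy many of the same genes as Pou5f1, Sox2 and Nanog, and their combined loss impairs self-renewal. Klf4 is a target of LIF and STAT3 signalling and one of the classical reprogramming factors. Klf3 is a repressor that recruits the CtBP proteins, and Klf9 is a Sin3a-binding repressor induced by thyroid hormone and glucocorticoids.

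The sequences upstream of Klf2, Klf4, Klf9 and Klf3 are shown because the first 3 genes had lower signals in neurospheres on every probe set tested, while the probe sets of Klf3 disagreed. Klf5 was lower too, but the reference used held no upstream sequence for it. Each sequence shown is the 250 bases before the gene's start in RefSeq (GRCm38.p6), 5′ to 3′ on the gene's strand. They lie at chr8:72318812-72319061 (plus strand), chr4:55532476-55532725 (minus), chr19:23140976-23141225 (plus) and chr5:64803271-64803520 (plus) in that order. Capitals mark matches on either strand to the GC box GGGCGG and the CACCC box, both elements of the kind that the family binds, and to the MEF2 consensus.
Klf2: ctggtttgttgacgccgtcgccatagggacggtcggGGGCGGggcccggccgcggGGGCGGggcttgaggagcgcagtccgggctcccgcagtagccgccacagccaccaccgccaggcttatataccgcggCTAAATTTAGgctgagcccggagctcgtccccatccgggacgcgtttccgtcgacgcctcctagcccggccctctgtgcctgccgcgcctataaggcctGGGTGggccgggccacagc
Klf4: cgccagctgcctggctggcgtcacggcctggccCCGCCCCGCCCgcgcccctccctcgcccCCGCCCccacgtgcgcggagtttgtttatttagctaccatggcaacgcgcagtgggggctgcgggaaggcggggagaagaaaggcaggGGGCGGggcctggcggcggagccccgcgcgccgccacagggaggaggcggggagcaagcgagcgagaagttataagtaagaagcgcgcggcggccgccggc
Klf9: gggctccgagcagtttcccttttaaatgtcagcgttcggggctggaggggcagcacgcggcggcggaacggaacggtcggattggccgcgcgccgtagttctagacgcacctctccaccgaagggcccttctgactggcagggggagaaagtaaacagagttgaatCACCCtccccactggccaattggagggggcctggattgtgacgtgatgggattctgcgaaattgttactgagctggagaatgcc
Klf3: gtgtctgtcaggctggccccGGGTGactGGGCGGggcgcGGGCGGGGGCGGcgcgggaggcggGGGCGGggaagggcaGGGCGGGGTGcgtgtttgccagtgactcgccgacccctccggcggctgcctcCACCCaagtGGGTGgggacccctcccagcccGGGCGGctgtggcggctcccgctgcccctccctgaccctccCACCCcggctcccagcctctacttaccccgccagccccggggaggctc
The GC box was found 2 times in Klf2, 4 times in Klf4, 0 times in Klf9 and 6 times in Klf3, and 32.7% of 32851 RefSeq promoters of the same length held at least 1. At least as many as in Klf3 were found in 0.886% of these promoters, and at least as many as in Klf4 in 4.09%. The CACCC box matched 1 time in Klf2, 0 times in Klf4, 1 time in Klf9 and 5 times in Klf3, against at least 1 in 52.0% of all promoters. In Klf3, 1 CACCC match overlapped a GC box. Klf2 held the MEF2 match CTAAATTTAG, which begins 118 bases before its start. MEF2 factors act downstream of the kinase ERK5 on Klf2 in other cell types, and 2.92% of all promoters held such a match. The STAT motif TTCNNNGAA matched 1 time in Klf9 and in 7.02% of promoters, with 0 matches in Klf2, Klf4 and Klf3. The E-box CACGTG matched 1 time in Klf4 and in 6.02% of promoters. A match is a description of the letters in these windows.

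Signals are linear MAS5 values, rescaled so that each array has a trimmed mean of 500. Before rescaling, the trimmed means were 29.5 in neurospheres, 32.5 and 1485 in the aggregation and suspension arrays, and 1490.0 in adherent cells. After it, the 10th percentile was 33.8 in neurospheres, 29.5 and 33.7 in the aggregation and suspension arrays and 17.4 in adherent cells. Without detection calls, dim signals could not be set apart from background. Of 8 ES cell markers 7 fell in neurospheres and 0 rose, and of 7 tested neural progenitor markers 5 rose and 0 fell (limma adjusted p under 0.05). Of these, 4 of the ES markers reached the signal filter on R1 arrays alone and 4 of the progenitor markers in neurospheres alone, so the counts describe the arrays and do not test the labels. In a bulk sample, fewer expressing cells and less RNA per cell cannot be told apart.

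The comparison of neurospheres with R1 cells asked how neural and embryonic stem cells differ. Klf2, Klf4, Klf5 and Klf9 fell in neurospheres on each of their tested probe sets. Klf3 fell on one probe set and not on the other. In all, 6 of the 8 probe sets were called lower, 1 did not pass the test and 1 was too dim to be tested. In the same fit, 11.6% of the 8031 probe sets tested were called lower, 8.09% higher and 19.7% either way. Klf2, Klf4, Klf5 and the dimmer Klf9 probe set entered the test through their R1 signals alone, so this count is given as a description. Differences are in log2(signal + 32), with the adherent array and the average of both embryoid body arrays weighted equally as the R1 value that is subtracted.

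Klf5, a factor of ES cell self-renewal and of epithelial progenitors, had a signal of 100.4 in neurospheres, 6185 and 6112 in the aggregation and suspension embryoid bodies, and 6379 in adherent cells. The 3 R1 arrays lay close together and the neurosphere array lay far below all of them. Its difference was -5.57 ± 0.28 (SE; 95% interval -6.15 to -4.99; limma adjusted p = 3.07e-12). The gene lies at chr14:99298691-99313412. On probe set 99622_at, Klf4 had 44.9 in neurospheres, 2285 and 4336 in the aggregation and suspension arrays, and 3499 in adherent cells. Again neurospheres did not overlap with R1 cells, but here the embryoid body arrays were themselves apart, with adherent cells between them. The difference was -5.45 ± 0.36 (SE; interval -6.19 to -4.70; adjusted p = 2.20e-10, limma). Klf2, named for its abundance in lung and known in endothelium and quiescent T cells, had 37.6 in neurospheres, 918 on both embryoid body arrays and 980.5 in adherent cells. Of the 5 genes, it varied least between the embryoid body arrays (mean 918 ± 0.232, SD, n = 2). Its difference was -3.82 ± 0.46 (SE; interval -4.76 to -2.87; limma adjusted p = 2.08e-06).

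The neurosphere signals of Klf2, Klf4 and Klf5 lay at percentiles 11.7, 15.1 and 30.8 of that array. On the R1 arrays Klf2 lay at percentiles 82.7 to 83.6, Klf4 at 94.1 to 97.7 and Klf5 at 98.4. Because the neurosphere side can be background, no ratio of signals is given for these genes, and the size of each difference moves with the added 32. With 1 added, the differences of Klf2, Klf4 and Klf5 were -4.62, -6.18 and -5.95. With 100 added they were -2.93, -4.56 and -4.99. The second Klf4 probe set, 161185_i_at, stayed at 11.2 in neurospheres, 14.6 and 17.3 in the embryoid bodies and 8.30 in adherent cells. These values lay at percentile 2.96 or lower on every array, so this probe set did not reach the signal filter and did not register the Klf4 signal that 99622_at gave in R1 cells.

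The brighter Klf9 probe set, 93528_s_at, gave 953 in neurospheres, 3438 and 3904 in the aggregation and suspension arrays, and 4755 in adherent cells. All R1 arrays were above neurospheres, by 3.61 to 4.99 times, and the neurosphere signal itself was at percentile 83.9 of its array. The difference was -2.09 ± 0.28 (SE; limma adjusted p = 7.72e-06). The dimmer probe set, 93527_at, gave 47.5 in neurospheres, 447 and 680.5 in the embryoid bodies, and 902 in adherent cells. Here neurospheres were at percentile 16.1, and the difference was -3.22 ± 0.52 (SE; adjusted p = 9.47e-05, limma). Thus both probe sets gave the order neurospheres, aggregation, suspension, adherent, but only the brighter one left Klf9 well above the neurosphere median. The _s_at class can detect related transcripts. Without the intensity trend in the variance prior, the call of 93528_s_at ended (adjusted p = 0.0543) and that of 93527_at did not (adjusted p = 0.0390).

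For Klf3 the probe sets pointed in opposite directions. On 100010_at, the signal was 269 in neurospheres, 684 and 887 in the aggregation and suspension arrays, and 576 in adherent cells. Neurospheres were the lowest array, with R1 signals 2.14 to 3.30 times higher. The difference was -1.22 ± 0.43 (SE; interval -2.11 to -0.33), close to the threshold (limma adjusted p = 0.0483). On 100011_at, the signal was 740.4 in neurospheres, 441 and 419 in the embryoid bodies, and 563 in adherent cells, so neurospheres were the highest array. That difference of 0.56 ± 0.43 (SE; interval -0.34 to 1.46) did not pass the test (adjusted p = 0.391, limma). Among all tested probe sets, 32.1% were lowest and 34.8% highest in neurospheres, so neither position is rare. In a fit of 2 groups, neurospheres and all R1 arrays, the call of 100010_at ended (-1.29, adjusted p = 0.0929). In that fit without the aggregation array it was -1.31 (adjusted p = 0.215), and without the suspension array -1.13 (adjusted p = 0.295). It also ended against the adherent array alone, at -1.01 (adjusted p = 0.191).

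**Figure D1:**
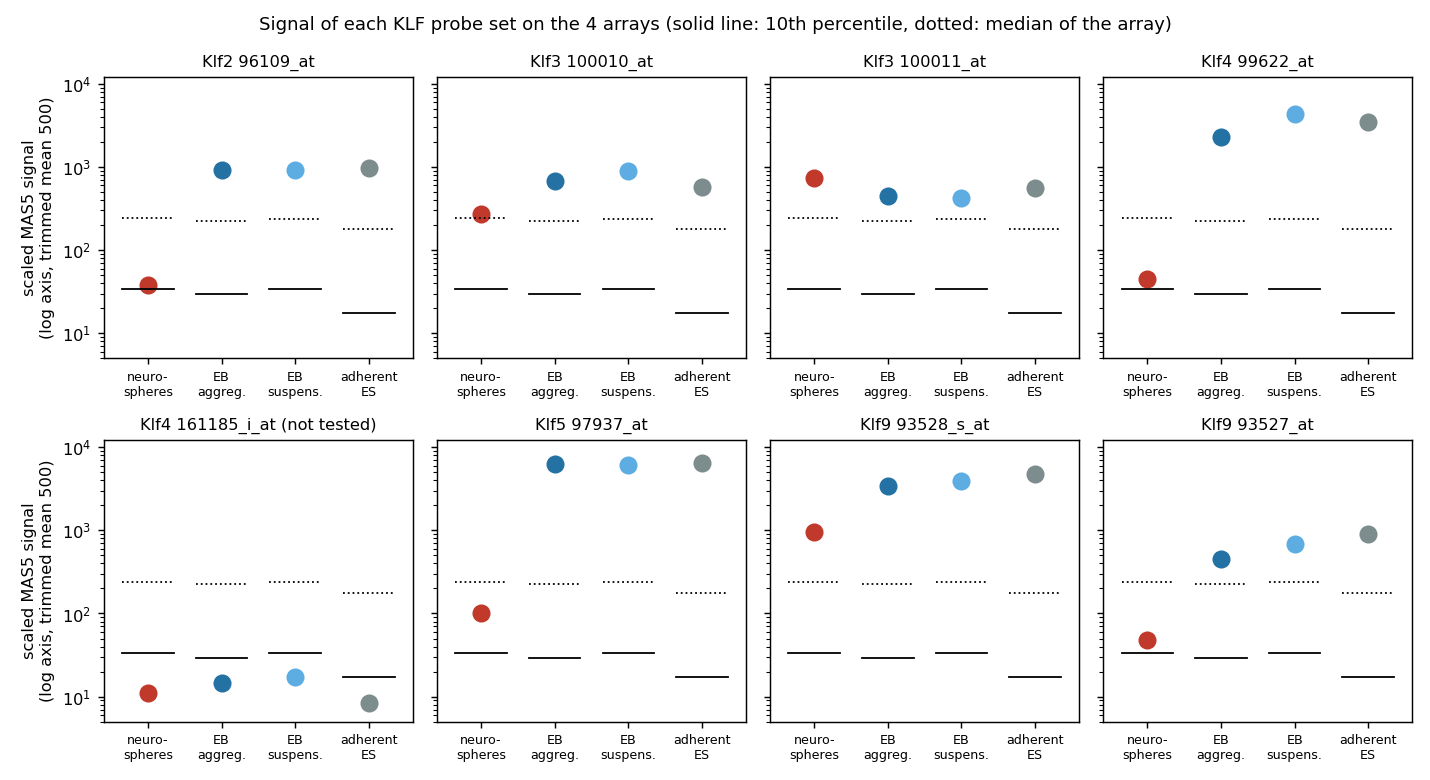
Scaled MAS5 signal (log axis, arbitrary units) of the 8 probe sets of Klf2, Klf3, Klf4, Klf5 and Klf9 on the neurosphere array, the 2 embryoid body (EB) arrays and the adherent ES array, 1 point per array, with each array's 10th percentile (solid line) and median (dotted line). Klf2, Klf4 (99622_at), Klf5 and Klf9 are lowest in neurospheres, the Klf3 probe sets go opposite ways, and Klf4 161185_i_at stays below the 10th percentile on every array.

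None of the other family members passed the test against the R1 arrays together. Of 20 further KLF and SP genes listed, 10 were on the array and 8 reached the signal filter, and limma called 0 of them. Over all tested probe sets 19.7% were called either way, so 0 calls among 8 genes are not read as a result about the family. Before adjustment, 2 of the genes had p under 0.05 and were lower and 0 were higher, a level that 17.0% (lower) and 15.0% (higher) of all tested probe sets reached. Their median difference was -0.11, against 0.10 over all probe sets tested. The pair with a lower unadjusted p was Sp3 (-0.92 ± 0.37 SE, adjusted p = 0.0894, and -1.37 with adjusted p = 0.0389 against the adherent array alone) and Sp1 (-0.87 ± 0.34, adjusted p = 0.0793), general activators that bind GC boxes. Sp1 had 988 in neurospheres, 1319 and 2503 in the aggregation and suspension arrays, and 1858 in adherent cells. Klf6, a broadly expressed factor of the wound response, had 553 in neurospheres, 664 and 610.4 in the embryoid bodies, and 541 in adherent cells. Its difference of -0.08 had an interval of -0.94 to 0.78. Klf10, a factor induced by TGF-beta, lay at -0.33 (interval -0.95 to 0.29) on its brighter probe set and at -0.41 (-1.04 to 0.22) on the other. Klf13 lay at -0.13 (-0.94 to 0.68) on its brighter probe set and at 0.13 (-0.77 to 1.04) on the other.

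Less precise were the erythroid factor Klf1 at 0.28 (interval -1.31 to 1.87), Klf7, a factor of neuron development, at 0.62 (-1.23 to 2.46), and Klf17 at 1.49 (-0.50 to 3.49). The Klf17 value rests on an _r_at probe set with 277 in neurospheres, 355 and 38.4 in the aggregation and suspension arrays, and 41.4 in adherent cells. On that probe set aggregation lay near neurospheres and suspension near adherent cells, the same split as in the trimmed means before rescaling. A dimmer Klf17 probe set, 92324_at, did not reach the signal filter and did not show this split. It gave 40.5 in neurospheres, 33.6 and 36.8 in the aggregation and suspension arrays, and 10.3 in adherent cells. Klf1 did not show the split either, with 209 in neurospheres, 83.5 and 207 in the embryoid bodies, and 207 in adherent cells. The cause was not tested. Klf12 and Sp4 did not reach the signal filter. The intervals of Klf1, Klf7 and Klf17 include changes of more than 1 log2 unit. So do those of Sp1 (-1.59 to -0.16), Sp3 (-1.70 to -0.14) and the dimmer probe sets of Klf10 and Klf13.

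**Figure D2:**
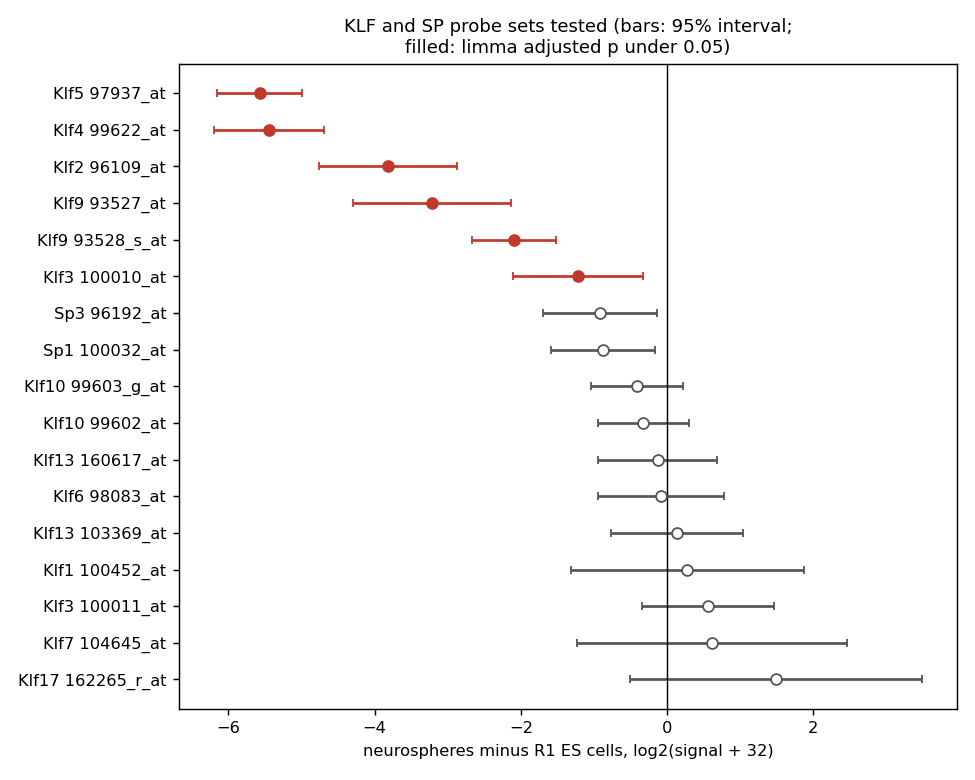
Difference between neurospheres and R1 ES cells in log2(signal + 32) for each tested KLF and SP probe set, with 95% intervals from limma, filled where the adjusted p is under 0.05. The filled points are Klf5 (-5.57), Klf4 (-5.45), Klf2 (-3.82), both Klf9 probe sets (-3.22 and -2.09) and Klf3 100010_at (-1.22), and the others are open.

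The second comparison set the 2 embryoid body arrays against the adherent array and asks what unattached culture does to ES cells while LIF is present. None of the 7 tested member probe sets passed limma's test, and 0 had an unadjusted p under 0.05. The background was low, with 0.349% of all tested probe sets called, 0.261% higher and 0.0872% lower. Before adjustment, 8.09% had p under 0.05 and were higher, and 5.64% were lower. Klf5 averaged 6149 ± 51.5 (SD, n = 2) in embryoid bodies, against 6379 in adherent cells. Its difference of -0.05 had an interval of -0.66 to 0.56 (adjusted p = 0.949). Klf2 averaged 918 in embryoid bodies against 980.5 in adherent cells, a difference of -0.09 with an interval of -1.08 to 0.90 (adjusted p = 0.945, limma). Klf4 had a mean of 3310.4 ± 1450.2 (SD, n = 2) in embryoid bodies, against 3499 in adherent cells (-0.15, interval -0.93 to 0.63, limma adjusted p = 0.889).

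Klf9 was lower on both embryoid body arrays than on the adherent array with both probe sets. The brighter one averaged 3671 ± 329.7 (SD, n = 2) in embryoid bodies, against 4755 in adherent cells (-0.37, interval -0.97 to 0.22, limma adjusted p = 0.600). The dimmer one averaged 564 ± 165 (SD, n = 2) in embryoid bodies, against 902 (-0.68, interval -1.80 to 0.45, adjusted p = 0.616). Klf3 100010_at lay at 0.42 (interval -0.51 to 1.35) and 100011_at at -0.36 (-1.30 to 0.58), again in opposite directions. All these intervals include 0, and those of Klf2, Klf3 and the dimmer Klf9 probe set also include changes of more than 1 log2 unit. The lack of a call does not show that the cultures were equal.

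**Figure D3:**
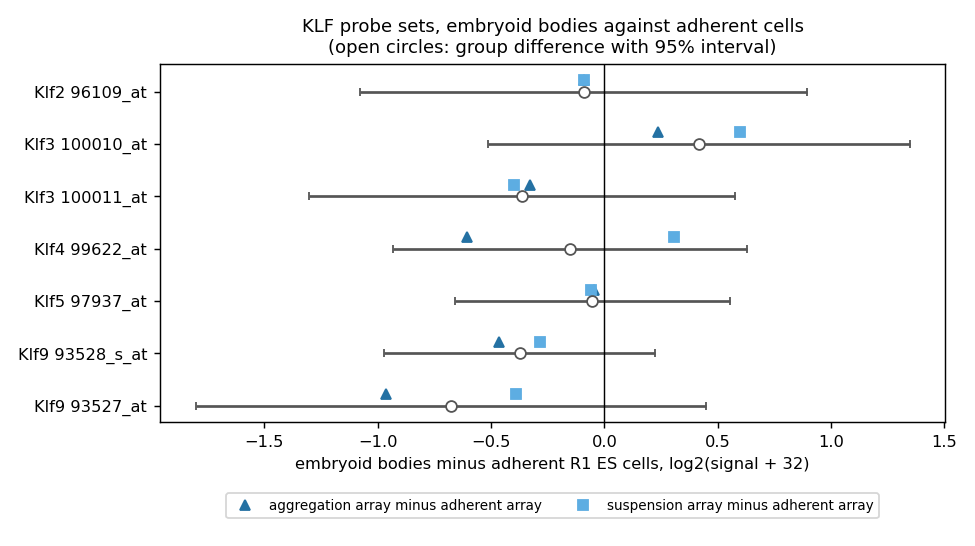
Difference between embryoid bodies and adherent R1 ES cells in log2(signal + 32) for the 7 tested KLF probe sets, with the 95% interval from limma (open circles) and the separate differences of the aggregation (triangles) and suspension (squares) arrays. Every interval includes 0, and the Klf4 arrays lie on opposite sides of 0, at -0.61 for aggregation and 0.31 for suspension.

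The suspension and aggregation arrays were compared by values alone. Before rescaling, the trimmed mean of aggregation (32.5) was near that of neurospheres (29.5), and that of suspension (1485) near that of adherent cells (1490.0). The scale of the deposited values and the way the bodies were made therefore cannot be told apart in this pair. Klf4 was the member furthest apart, with 4336 in suspension and 2285 in aggregation, a ratio of 1.90 and a difference of 0.91. A difference at least this large in either direction was seen in 17.4% of all tested probe sets, and one in the same direction in 9.65%. None of the members reached 1 log2 unit, which 15.2% of tested probe sets did. Klf9 93527_at was 1.52 times higher in suspension and Klf3 100010_at 1.30 times. Klf2 and Klf5 were nearly equal, with differences of 0.00050 and -0.02.

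Genes of the LIF and STAT3 path, which drives Klf4, were examined next. As with the KLF genes, some called genes reached the signal filter on a single side, so their calls are given as a description. On the R1 side these were Icam1, Socs3, Kat2b and 11 of the 16 called ES network genes. On the neurosphere side it was Mapk7. Over all tested probe sets, 11.6% were called lower in neurospheres and 8.09% higher. Of 15 genes tested in the LIF and STAT3 path, 4 fell in neurospheres and 0 rose, and the median difference was -0.42. The 4 were Icam1, an adhesion molecule (-4.26), the kinases Pim3 (-2.41) and Pim1 (-2.29), and Socs3, the feedback inhibitor of the receptor (-2.04). Socs3 had 185 in neurospheres, 676 and 2165 in the aggregation and suspension arrays, and 609 in adherent cells on probe set 162206_f_at. Its dimmer probe set, 92232_at, gave 76.2 in neurospheres, 319 and 5805 in the aggregation and suspension arrays, and 621 in adherent cells. Like Klf4, Socs3 was thus higher in suspension than in aggregation on both probe sets, and Pim3 was too (6298 and 3031). Of the other called genes of the path, Pim1 was slightly higher in suspension and Icam1 slightly lower, with suspension minus aggregation differences of 0.20 and -0.09. The median suspension minus aggregation difference of the 15 genes was 0.58, against 0.02 over all tested probe sets. Here too, the scale of the deposited values and the way the bodies were made cannot be told apart. In the fit of 2 groups Socs3 was called with all arrays (-2.20, limma adjusted p = 0.00232) and not without the suspension array (-1.63, adjusted p = 0.103). Stat3, the transcription factor itself, had 1419 in neurospheres, 1734 and 2107 in the aggregation and suspension arrays, and 1369.9 in adherent cells, and did not pass the test (-0.19, adjusted p = 0.708). It was named after its values were seen, as were the receptor genes Lifr (-0.42) and Il6st (-0.89), which did not pass either. The remaining tested genes, also named afterwards, were not called. Jak2 (2.68), Socs1 (1.07), Myc (1.04), Jak1 (0.94) and Tyk2 (0.31) lay above 0. Bcl3 (-0.75), Stat5a (-0.68) and Junb (-0.29) lay below it. Before adjustment, 1 gene of the path had p under 0.05 and was higher, and 4 were lower. The higher one was Jak2 (limma adjusted p = 0.0774), which reached the signal filter in neurospheres alone.

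In the path from MEK5 over ERK5 to MEF2, which acts on Klf2, 1 of 6 tested genes rose in neurospheres and 0 fell (median 0.51). Over all tested probe sets 8.09% were called higher, so 1 call among 6 genes is not read as a result about the path. The riser was Mapk7, which encodes ERK5, with 651 in neurospheres, 220.1 and 93.5 in the aggregation and suspension arrays, and 103 in adherent cells (2.14 ± 0.70 SE, limma adjusted p = 0.0352). Mapk7 entered the test through neurospheres alone and Klf2 through R1 arrays alone, so their opposite directions are given as a description. The Mapk7 call ended in 8 of 11 alternatives, among them the fit of 2 groups with all arrays (2.07, adjusted p = 0.0696), either R1 culture alone as the reference (adjusted p = 0.0765 for embryoid bodies and 0.0633 for adherent cells), no signal filter (0.0952) and quantile normalization (0.0634). Across the 11 the difference stayed between 1.74 and 2.41.

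Klf9 is a target of thyroid hormone and glucocorticoid receptors, and of 10 tested genes of those paths 1 rose and 3 fell (median 0.05). The shares over all tested probe sets were 8.09% higher and 11.6% lower. Thra, the thyroid hormone receptor alpha, had 2322 in neurospheres, 598 and 776 in the aggregation and suspension arrays, and 396 in adherent cells (2.09 ± 0.37 SE, limma adjusted p = 2.77e-04). The genes that fell were Sgk1, a kinase induced by glucocorticoids (-2.90), and the immunophilins Fkbp5 (-1.54) and Fkbp4 (-1.03) of steroid receptor complexes. Sgk1 had 261 in neurospheres, 863 and 2611 in the aggregation and suspension arrays, and 3073 in adherent cells, the same array order as Klf9. The Fkbp4 call ended in the fit of 2 groups with all arrays (-1.06, adjusted p = 0.0710), and a dimmer Fkbp4 probe set had a difference of -0.42.

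Among 14 tested cofactors, 1 rose and 4 fell in neurospheres (median -0.46), against 8.09% and 11.6% of all tested probe sets. The CtBP genes went opposite ways. Ctbp1, a corepressor recruited by Klf3, had 3396 in neurospheres, 1086 and 1171 in the aggregation and suspension arrays, and 889 in adherent cells. Neurospheres were above every R1 array (1.73 ± 0.31 SE, limma adjusted p = 3.23e-04). Its close relative Ctbp2 had 635 in neurospheres, 2903 and 3279 in the aggregation and suspension arrays, and 4857 in adherent cells. Here neurospheres were below every R1 array (-2.55 ± 0.28 SE, adjusted p = 8.07e-07, limma), and a dimmer probe set lay at -2.59. The acetyltransferase Kat2b (-2.24), the deacetylase Hdac1 (-2.10) and Wdr5, a subunit of histone methyltransferase complexes (-1.15), also fell. A dimmer Kat2b probe set, at percentile 5.81 in neurospheres, did not pass the test (-1.85, limma adjusted p = 0.139). In the fit of 2 groups Wdr5 was called with all arrays (-1.17, adjusted p = 0.0360) and not without the aggregation (-1.11, adjusted p = 0.171) or the suspension array (-1.19, adjusted p = 0.0828). Sin3a, a partner of Klf9 that was singled out once its values were known, missed the threshold (-0.95, limma adjusted p = 0.0554).

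Of 20 tested genes of the ES cell network that KLFs share targets with, 16 fell in neurospheres and 0 rose (median -3.39). The shares over all tested probe sets were 11.6% lower and 8.09% higher. Because 11 of the 16 reached the signal filter on R1 arrays alone, the count is given as a description. Among them were Nr0b1 (-7.09), Pou5f1 (-6.89), Dppa5a (-6.53) and Mycn (-5.28), whose order is not read because it moves with the added value. With 1 added Mycn was at -6.14, and with 100 added at -4.31. A dimmer Pou5f1 probe set, 161159_r_at, went the other way without passing the test (0.74 ± 0.69 SE, limma adjusted p = 0.485), with 277 in neurospheres, 262 and 196 in the aggregation and suspension arrays, and 99.5 in adherent cells. Limma called 0 genes of these 5 lists between embryoid bodies and adherent cells, where 0.349% of all tested probe sets were called. These lists were chosen with earlier results of these data known.

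**Figure D4:**
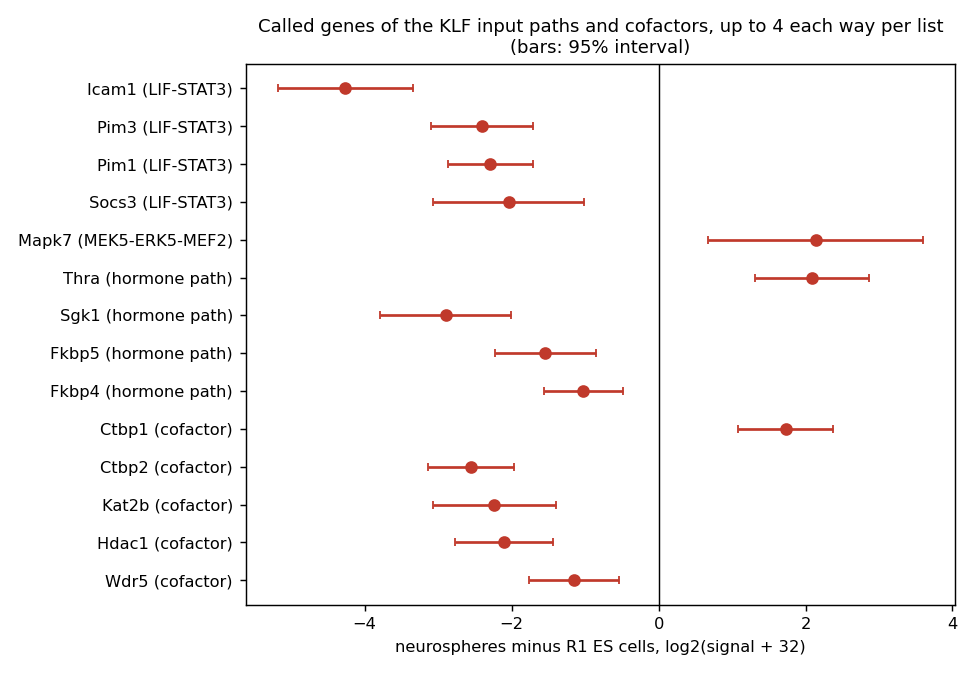
Difference between neurospheres and R1 ES cells in log2(signal + 32), with 95% intervals from limma, for the called genes of the LIF-STAT3 path, the MEK5-ERK5-MEF2 path, the hormone path of Klf9 and the KLF cofactors, up to 4 each way per list. Mapk7 (2.14), Thra (2.09) and Ctbp1 (1.73) lie right of 0, and the other genes, Icam1 (-4.26) to Fkbp4 (-1.03), lie left of it.

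For the brighter or only probe set of each member, the genes nearest in pattern were found by the root mean square distance between log2 profiles over the 4 arrays, each centred on its own mean. Profiles near Klf4 were those of Trap1a (distance 0.22), Mycn, the N-myc oncogene (0.27), and Nanog, a core pluripotency factor (0.30). Klf5 was nearest to Mycn (0.19), Rps4l (0.19) and Nanog (0.21). Klf2 was nearest to the corepressor Tgif1 (0.06), the Polycomb gene Phc1 (0.11) and Laptm5 (0.16). Tgif1 had 239 in neurospheres, 3731 and 3899.6 in the aggregation and suspension arrays, and 3713 in adherent cells. For Klf9 they were Nufip1 (0.05), Aldh2 (0.05) and Akap12 (0.06), and for Klf3 100010_at Kcnk1 (0.03), Mroh1 (0.04) and Pml (0.05). Among the members, the distance was 0.34 between Klf4 and Klf5, 0.46 between Klf3 and Klf9, and 1.86 between Klf3 and Klf5. Small differences over the arrays give small distances, so these distances are not ranked between strongly and weakly changing genes.

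**Figure D5:**
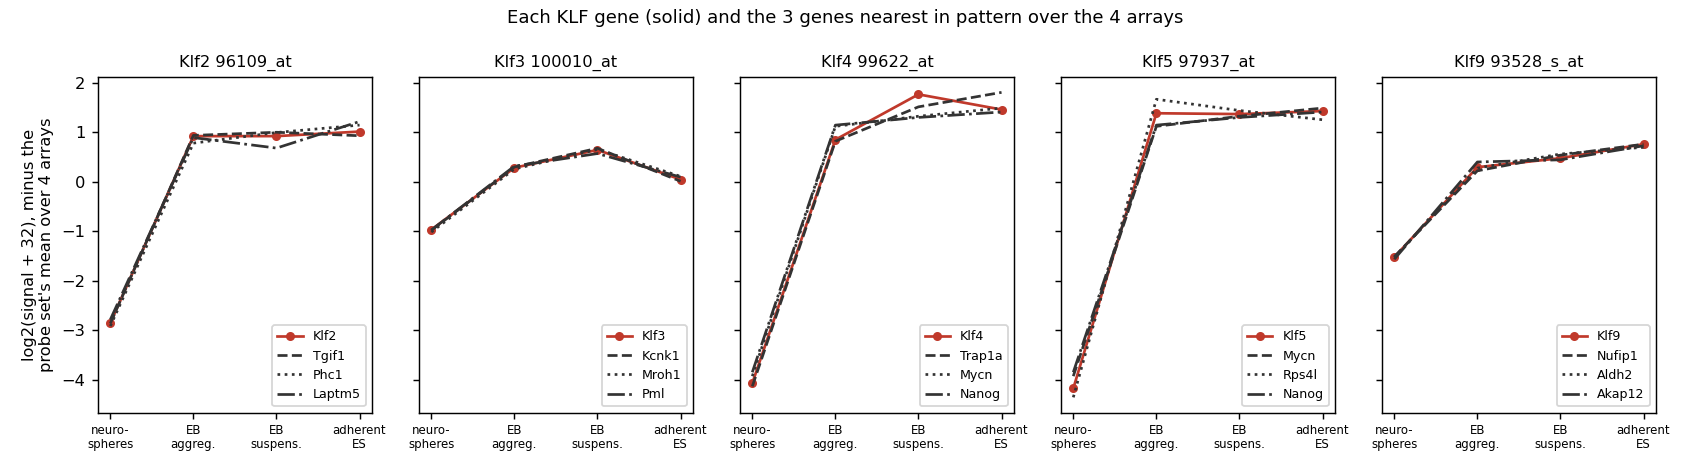
Log2(signal + 32) minus each probe set's mean over the 4 arrays, for the 5 KLF genes (solid lines with points) and the 3 genes nearest to each in pattern (broken lines), on the neurosphere, embryoid body (EB) and adherent ES arrays. Klf4 and Klf5 share Mycn and Nanog among their nearest genes, and the largest step in each panel is between neurospheres and the R1 arrays.

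Markers of the cells that the neurosphere labels name as contaminating were measured beside these results. Over all tested probe sets, 8.09% were called higher in neurospheres and 11.6% lower. Of 4 tested astrocyte genes 1 rose (Aldoc) and 1 fell (Gja1) in neurospheres, and the summed signal of the 5 on the array was 6956 in neurospheres, against 3961 to 7665 on the R1 arrays. Gja1, a gap junction gene, carried most of the R1 sums. The other 4 astrocyte genes summed to 5060.4 in neurospheres, against 404 and 1195 in the aggregation and suspension arrays and 319 in adherent cells, and the median difference of the tested genes was 1.41. Of 3 tested oligodendrocyte genes 1 rose (Sox10) and 0 fell, and the 4 on the array summed to 1967 in neurospheres, against 613 to 1376 on the R1 arrays. Fibroblast markers, which could mark feeder cells, gave 0 calls among 5 in neurospheres, with 1 higher at an unadjusted p under 0.05. Between embryoid bodies and adherent cells, 1 of the 5 fibroblast genes rose (Col1a2), against 0.261% of all tested probe sets called higher there. The 6 on the array summed to 4442 and 4336 in the aggregation and suspension arrays, against 1593 in adherent cells. Col1a2, on an _r_at probe set, carried most of these sums, with 3062 and 3428 against 1123. No marker on these lists was at 0 on any array, and the part of such cells in the KLF signals was not tested. Of 4 tested neuron markers 1 fell (Stmn2, -1.92), and Map2 (3.27, adjusted p = 0.0517), Dcx (2.07, adjusted p = 0.0586) and Tubb3 (0.70, adjusted p = 0.0650) did not pass limma's adjusted threshold. Before adjustment 3 neuron markers had p under 0.05 and were higher, and the median of the list was 1.38. Of 4 trophoblast markers 2 fell (Krt8 and Tfap2c) and of 2 primitive endoderm markers 0 passed the test in neurospheres. Krt8 and Tfap2c reached the signal filter on R1 arrays alone, so their calls are given as a description. The marker genes named here were singled out after their values were seen.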

How the data were processed

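RNA from 3 kinds of culture was measured on 4 MG_U74Av2 arrays. The deposited values are linear signal intensity per probe set, computed by the authors with MAS5, per the submitters' processing notes. No source used here gives the MAS5 version or its scaling target. Of 12488 probe sets, 66 AFFX controls were left out. Arrays were brought to one 2% trimmed mean (500), 32 was added and log2 taken, so fold changes of dim genes are understated. The 8031 probe sets that reached the array median on at least 1 array were fitted together with limma 3.58.1 (R 4.3.3), in 3 groups with an intensity trend. The embryoid body pair supplied the 1 residual degree of freedom, the prior added 20.5 (median), and the single arrays were assumed to vary alike. Two-sided p-values received Benjamini-Hochberg adjustment across the 8031, and 0.05 was the threshold. The number of arrays limits the precision.

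Lists were counted with 1 probe set per gene, the one with the highest mean log2 value. The text names all members, all KLF and SP genes on the array, up to 4 called genes each way from each list by size, and the 3 nearest genes in pattern. Members and lists were chosen with earlier results of these data known. Gene symbols came from the platform annotation, and 10817 of the 10833 probe sets with 1 gene matched a RefSeq gene table by identifier. The code was tested on simulated data. Alternatives covered the added value, the filter, quantile normalization, the trend, the grouping, the R1 reference and each embryoid body array. The scanner information files hold no measurements and were not used.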

Additional observations from a re-analysis of the deposited data

How the results depend on the processing

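The calls of Klf2, Klf4, Klf5 and Klf9 93527_at in neurospheres kept their direction and side of the threshold under every alternative run, with differences of -4.62 to -2.93, -6.18 to -4.56, -5.95 to -4.99 and -3.86 to -2.46. The 93528_s_at call of Klf9 was lost only without the intensity trend. Klf3 100010_at passed in 5 of 12 settings, main one included (adjusted p from 0.0301 to 0.295). Without the trend limma called 218 probe sets higher and 237 lower in neurospheres, and 0 and 0 in embryoid bodies (529 and 252 at an unadjusted p under 0.05). The calls of Ctbp1, Thra, Sgk1, Hdac1, Pim3, Fkbp5, Fkbp4, Socs3, Wdr5 and Mapk7 ended there too. Without the signal filter it called 0 and 0 in embryoid bodies (795 and 477 unadjusted), and after quantile normalization 2 lower. Leaving out an embryoid body array gave 315 to 378 higher and 460 to 515 lower in neurospheres, in fits of 2 groups, which with all arrays gave 436 and 642. Quantile normalization moved the median of all tested probe sets in the neurosphere comparison to 0.03, against 0.10, and in embryoid bodies to -0.01, against 0.10. It turned the sign of the uncalled embryoid body differences of Klf4 99622_at (0.0012), Klf10 99603_g_at (0.00039) and Sp1 (0.10). In neurospheres the uncalled Klf13 103369_at turned to -0.0086 in 2 groups, to -0.29 against embryoid bodies alone and to -0.14 when the aggregation array was left out, against 0.40 when suspension was. Sp3 gained a call against the adherent array alone. Against that array, Klf6 turned to 0.029 and Klf7 to -0.20. The causes were not tested. No paired analysis was possible because the labels give no replicate numbers shared between groups. Without detection calls, signals near an array's 10th percentile are not separable from background.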
